A study of Mus musculus with 230 samples.

Results

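Cells of the postnatal mouse cortex that carried transcripts of Pax6 were set against cells of the same age that did not. The 2 classes came from 109 P2 cells, which are part of 230 sequenced cells, the other 121 being E15 cells. A column that was 0 for every gene was left out. Cells were chosen by their measured Pax6 value. The class with Pax6 held the 48 cells in which it reached at least 1 RPKM (reads per kilobase of exon and per mega reads), and the class without Pax6 held the other 60. All cells were taken from C57BL/6 mice of the genotype Neurog2CreERT x Ai14+/+. The mice received tamoxifen 12 h before dissection, and cells positive for the red protein tdTomato were sorted. P2 cells came from the dorsal subventricular zone (SVZ) at postnatal day 2 and E15 cells from the pallium at embryonic day 15. The Cre is driven by Neurog2 sequences, so only cells that had used these sequences, and their early progeny, could enter either class. The cell titles place 55 of these cells in plaque 1 and 53 in plaque 2, and plaque is used here as the titles give it. Neither an animal nor a litter is named for any cell. The P2 cells therefore count as 1 sample, and no test between the classes was possible. Differences are given pooled, and for most genes within plaque 1 and plaque 2 in brackets. Values in the reduced or matched cells and at E15 are pooled unless a plaque is named.

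Pax6 is a paired-box and homeobox transcription factor that is made in the radial glia of the pallium, the stem cells that line the ventricle. In the established order of cortical neurogenesis, radial glia with Pax6 and Sox2 give intermediate progenitors with Eomes (Tbr2), which divide in the SVZ and give neurons with Tbr1, Neurod2 and Neurod6. Pax6 acts upstream of Neurog2 and Eomes, and its level falls as cells become neurons.

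The gene for Pax6 lies on the forward strand of chromosome 2, from 105668900 to 105697364 in GRCm38. Its value defined the classes and is given as a description only. In the class with Pax6 it ranged from 1.12 to 83.5 RPKM with a median of 8.17, and 13 cells reached 20 RPKM. In the class without Pax6 it was exactly 0 in 46 cells and above 0 but under 1 RPKM in 14. The cells just below the limit had 0.66 and 0.95 RPKM, resting on about 57 and 47 reads. The cells just above it had 1.12 and 1.23 RPKM, resting on about 56 and 34 reads. The limit thus passes between cells with similar numbers of Pax6 reads. Cells with Pax6 made up 38.2% of plaque 1 (21 of 55, exact 95% interval 25.4 to 52.3%) and 50.9% of plaque 2 (27 of 53, 36.8 to 64.9%).

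The classes also differed in how many genes were seen per cell. A gene counted as detected at 1 RPKM or more. Cells with Pax6 had a median of 2220.5 detected genes (1579 to 3339) and cells without Pax6 a median of 1907 and at most 2499. The medians were 2217 and 1787 in plaque 1, and 2224 and 2077.5 in plaque 2. Reads on genes, worked out from the spacing of low values in each cell, had medians of 3.31 M (M for mega) with Pax6 and 2.57 M without. Mitochondrially encoded transcripts took a median of 7.70% and 7.25% of the RPKM total, with 5 of 13 such genes, mt-Co2 and mt-Co3 among them, listed at 0 in every cell. The 3 cells with fewer than 50% of the median number of detected genes were all in the class without Pax6. To give values at equal numbers of detected genes, 33 cells of each class were matched within a plaque to within 10% (medians 2101 and 2100), and matched values stand beside the results. Matching kept 12 of the 21 cells with Pax6 of plaque 1 and 21 of the 27 of plaque 2.

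**Figure D1:**
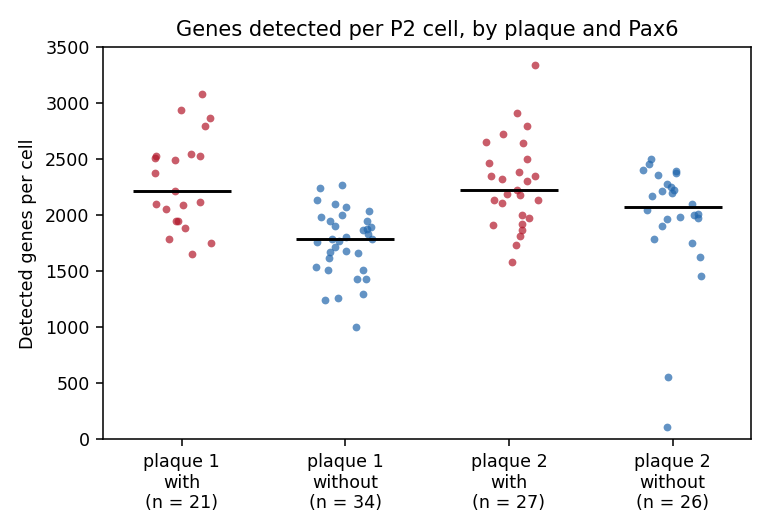
Detected genes per P2 cell (RPKM of at least 1, vertical axis) for cells with and without Pax6 in each plaque, where each point is a cell and the line is the median of the class. The medians with Pax6 (2217 in plaque 1 and 2224 in plaque 2) lie above those without (1787 and 2077.5), and the classes overlap.

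Over all genes except Pax6, most of the larger differences pointed to higher levels in cells with Pax6. Differences are of the mean log2(RPKM + 1), with Pax6 minus without, which understates the change of genes with low values. Genes detected in at least 10% of a class, with or without Pax6, were taken as measured, which gave 7009 genes. A measured gene was called when its pooled difference reached 1 and its difference within each plaque reached 0.5 in the same direction. By this rule 258 genes (3.68%) were called higher with Pax6 and 6 (0.0856%) lower. All measured genes together had a median difference of 0.20, not 0, and 45.5% were higher in both plaques by sign against 13.4% lower. Of them, 1551 passed the detection limit through the class with Pax6 alone and 476 through the class without alone. A part of this shift was thus built into the selection. Over the 18413 genes with any value above 0 the median was 0.01, with 27.4% higher and 12.1% lower. In the matched cells the median was 0.01, with 86 genes (1.32%) called higher and 120 (1.84%) called lower of 6519. The excess of higher over lower genes was not seen at equal numbers of detected genes, and 61 of the 258 genes were called higher in both settings.

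Genes of G2 and M phase, when a cell prepares for division and divides, were higher in cells with Pax6. The list of such genes has 34 members in the table, and all 34 had a positive difference in both plaques, beside 27.4% of the 18413 genes with any value above 0. Their median difference was 0.99 (0.15 to 2.35), beside 0.01 for those 18413 genes. The measured members numbered 32, of which 28 passed the detection limit through the class with Pax6 alone, so a difference was built into their selection. The rule called 15 members higher, beside 3.68% of all measured genes. In the matched cells 1 of 21 measured members was called and 8 were higher in both plaques by sign. The median there was 0.62, with 0.00 in plaque 1 and 0.99 in plaque 2. The 15 members were the topoisomerase gene Top2a, the mitotic kinase and cyclin genes Cdk1, Aurkb and Ccnb2, the ubiquitin-conjugating enzyme Ube2c and its complex's activator Cdc20, and the spindle and kinesin genes Tpx2, Nusap1, Tacc3, Kif11 and Kif23. The others were the centromeric histone gene Cenpa, Birc5 (survivin), the chromatin gene Hmgb2 and Cks2, a partner of cyclin-dependent kinases.

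Top2a, which untangles DNA before mitosis, ranged from 0 to 229 RPKM with a median of 0.39 in cells with Pax6, and from 0 to 8.67 with a median of 0 in cells without. Top2a reached 1 RPKM in 23 of 48 cells and in 5 of 60. Its difference was 2.05 (2.35 in plaque 1, 1.82 in plaque 2) and 1.49 in the matched cells. Hmgb2, an abundant chromatin protein of dividing cells, had a median of 13.5 RPKM (0 to 128) with Pax6 and of 0 (0 to 240) without. Its difference was 2.35 (2.21 and 2.52) and 1.55 in the matched cells. Both classes overlap in these genes, since each also holds cells at 0. Ube2c was detected in 14 of 48 cells with Pax6 and in 1 of 60 without, with a difference of 1.40 (2.27 and 0.67). Cks2 was detected in 18 and 8 cells, with a difference of 1.41 (1.61 and 1.37). Mki67, the gene of the Ki-67 antigen, was detected in 10 and 2 cells.

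The promoters of these 4 named members are shown because G2 and M phase genes differed in the same direction, and such promoters are known for CCAAT boxes, bound by NF-Y, and for the cell cycle genes homology region (CHR). Each line gives the 150 bases before the RefSeq start site (GRCm38.p6), 5′ to 3′ on the strand of the gene. Top2a is at chr11:99024190-99024339 on the reverse strand. On the forward strand are Hmgb2 at chr8:57511693-57511842, Cks2 at chr13:51645082-51645231 and Ube2c at chr2:164769779-164769928. Capitals mark CCAAT, or TTTGAA or TTCGAA (the CHR), on either strand, so that ATTGG and TTCAAA are the same motifs read in reverse.
Top2a: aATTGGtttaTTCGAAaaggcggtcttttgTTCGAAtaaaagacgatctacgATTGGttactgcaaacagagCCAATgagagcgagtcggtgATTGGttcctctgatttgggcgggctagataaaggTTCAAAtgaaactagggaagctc
Hmgb2: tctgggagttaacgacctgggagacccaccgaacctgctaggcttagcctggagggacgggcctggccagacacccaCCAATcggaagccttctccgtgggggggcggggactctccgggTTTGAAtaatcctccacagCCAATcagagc
Cks2: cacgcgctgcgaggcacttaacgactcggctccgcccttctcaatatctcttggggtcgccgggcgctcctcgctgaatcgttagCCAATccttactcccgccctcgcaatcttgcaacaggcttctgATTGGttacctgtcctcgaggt
Ube2c: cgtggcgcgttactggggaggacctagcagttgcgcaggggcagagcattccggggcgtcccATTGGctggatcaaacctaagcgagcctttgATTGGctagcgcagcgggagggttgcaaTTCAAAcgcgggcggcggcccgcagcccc
The Top2a window holds 4 CCAAT and 3 CHR matches, that of Hmgb2 2 and 1, that of Ube2c 2 and 1, and that of Cks2 2 and 0. Windows of the whole list (31 promoters of 30 genes) held CCAAT in 74.2% and CHR in 35.5%. Over all 32851 promoters of the same length the shares were 24.5% and 9.70%. Among promoters of all genes called higher with Pax6 (228 of 190 genes) the shares were 38.2% and 10.1%. These matches describe letters and were not tested as binding sites.

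Counted per cell, detection of many G2 and M phase genes was nearly limited to cells with Pax6. At least 5 of the 34 genes were detected in 22 of 48 cells with Pax6 (45.8%, 31.4 to 60.8%) and in 1 of 60 without (1.67%, 0.0422 to 8.94%). In plaque 1 these were 8 of 21 and 1 of 34 cells, and in plaque 2 14 of 27 and 0 of 26. The cell without Pax6 had 14 of the genes and 1003 detected genes in all. Read the other way, 22 of the 23 cells with many G2 and M phase genes had Pax6 (95.7%, 78.1 to 99.9%), beside 26 of the other 85 cells (30.6%, 21.0 to 41.5%). The limit of 5 is a range of a count and not a cell type: 5 cells had exactly 4 genes and 3 had exactly 5. With a limit of 3 genes the numbers were 29 and 9 cells, and with a limit of 10 they were 16 and 1. In the matched cells they were 12 of 33 (36.4%) and 0 of 33, which allows up to 10.6%. Only 1 of the 8 such cells of plaque 1 could be matched, and the 12 held 11 cells of plaque 2. Within the class with Pax6, the Pax6 level and the number of these genes per cell had a Spearman rho of 0.23 over 48 cells, which are not replicates and vary in depth.

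**Figure D2:**
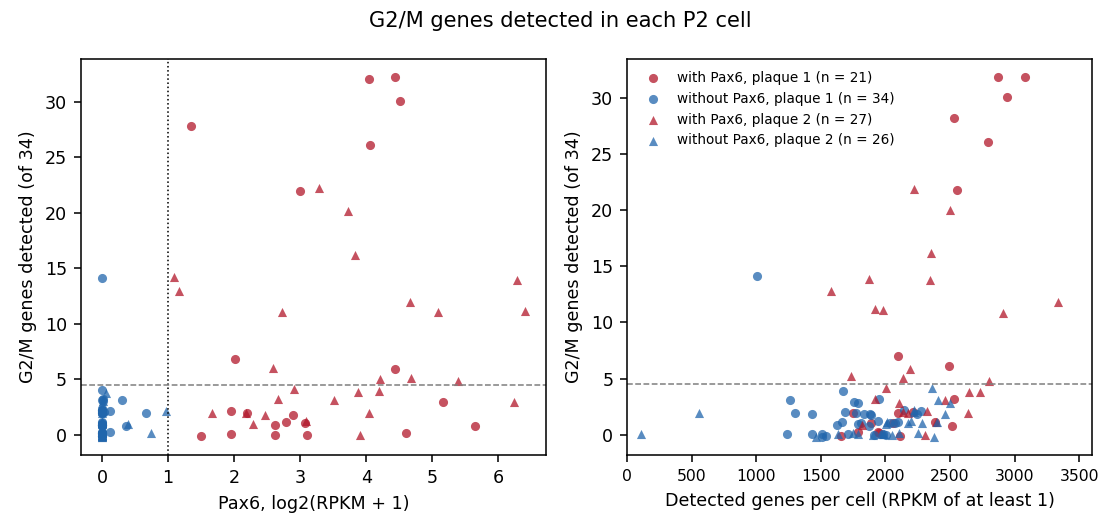
Number of the 34 G2 and M phase genes detected in each P2 cell (vertical axis, points shifted slightly so that ties show) against Pax6 as log2(RPKM + 1) on the left, where the dotted line is the limit of 1 RPKM, and against detected genes on the right. Above the dashed line, drawn between 4 and 5 genes, lie 22 cells with Pax6 and 1 without, and cells of similar detected genes lie on either side of it.

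S phase genes, which serve DNA replication, differed in the same direction with smaller values. Of 27 list members in the table, 18 were higher in both plaques by sign (beside 27.4% of genes with any value above 0) and 0 lower, with a median difference of 0.55. Of the 20 measured members, 12 passed through the class with Pax6 alone, and 4 were called higher, beside 3.68% of all measured genes. After matching, 0 of 13 members were called, 6 were higher and 2 lower in both plaques by sign, and the median was -0.19 in plaque 1 and 0.54 in plaque 2. Rrm2, the small subunit of ribonucleotide reductase, had means of 57.5 RPKM with Pax6 and 2.34 without, and reached 1 RPKM in 41.7% and 6.67% of cells. The difference was 2.23 (2.46 and 1.99). Rrm1, the large subunit, had a difference of 1.59 (1.68 and 1.45). Uhrf1, which guides the copying of DNA methylation, had a difference of 1.17 (1.67 and 0.81), and it was detected in 14 cells with Pax6 and 3 without. Pbk, a mitotic kinase outside both lists, had a difference of 2.48 (2.72 and 2.31) and was detected in 39.6% and 5.00% of cells.

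The largest difference of all named genes was in Ccnd2, which encodes cyclin D2, a G1 cyclin of dividing cortical progenitors (chromosome 6, 127125162 to 127152193, reverse strand, GRCm38). Ccnd2 had a median of 58.7 RPKM in cells with Pax6 (0 to 671) and of 1.58 in cells without (0 to 242), with means of 85.9 and 29.1. Ccnd2 was detected in 45 of 48 cells (93.8%) and in 33 of 60 (55.0%). The difference was 3.03 (2.52 in plaque 1, 3.36 in plaque 2) and 2.20 in the matched cells. Only 3 cells with Pax6 lay under 1 RPKM, against 27 without, while the ranges overlapped. Cdk4, the kinase partner of D-type cyclins, had medians of 81.3 and 18.8 RPKM, with 95.8% and 76.7% of cells at 1 RPKM or more. Its difference was 1.97 (2.11 and 1.71) and 1.39 in the matched cells. H2afv, a variant of histone H2A (chromosome 11, 6427229 to 6444443, reverse strand), had a median of 64.5 RPKM (0 to 310) with Pax6 and of 2.53 (0 to 157) without. At 91.7% and 53.3% of cells detected, it had a difference of 2.85 (3.13 and 2.53) and 2.25 in the matched cells.

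Leaving out the 23 cells with at least 5 G2 and M phase genes lowered some of these differences more than others. In the 26 remaining cells with Pax6 and 59 without, the differences of Ccnd2 (2.43), H2afv (2.10), Cetn3 (2.27), Impad1 (2.06), Pdia6 (2.07) and Cdk4 (1.70) were still above 1.5. So were those of Sh3bgrl (1.89) and Lsm7 (1.81). Cetn3 encodes a centrin of the centrosome and Pdia6 a protein disulphide isomerase of the endoplasmic reticulum. Snrpb (1.46), Egr1 (1.30) and Hnrnpdl (1.26) lay between 1 and 1.5. Pbk (0.40) and Rrm2 (0.52) were under 1, and Rrm1 was at -0.03. Hmgb2 (0.73) and Top2a (0.88) belong to the list by which cells were left out, so their lower values were set by that choice. Of the 15 named genes with the largest differences, 11 were called higher in these cells, 9 in the matched cells, and 8 when both conditions were applied together. The rule called 255 genes higher (3.77%) and 27 lower (0.399%) of 6763 without these cells, and 121 of the 255 were also among the 258. The remaining cells with Pax6 still had more detected genes (a median of 2124) than those without (1909).

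**Figure D3:**
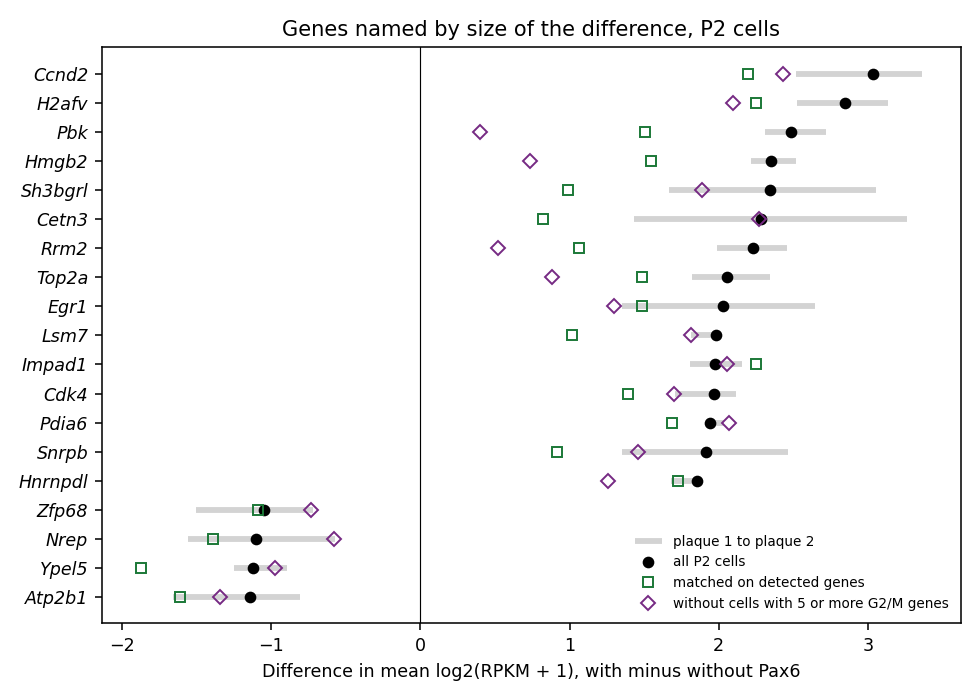
Difference in mean log2(RPKM + 1), cells with Pax6 minus cells without, for the 15 named higher and 4 named lower genes, for all P2 cells (points), from plaque 1 to plaque 2 (grey bars), in the cells matched on detected genes (squares) and without cells with at least 5 G2 and M phase genes (diamonds). Ccnd2 (3.03) and H2afv (2.85) stand highest, and Atp2b1 (-1.14) lowest. All genes shown have the same sign in both plaques because the rule that picked them required it.

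The other genes among the 15 lie outside the cell cycle lists. Sh3bgrl had medians of 156 and 8.94 RPKM and a difference of 2.35 (3.06 and 1.67), which was 0.99 in the matched cells. Cetn3 was at 2.29 (3.27 and 1.43) and 0.82 in the matched cells. Of genes for RNA processing, Lsm7 had a difference of 1.98 (1.82 and 2.00), Snrpb of 1.91 (2.47 and 1.35) and Hnrnpdl of 1.85 (1.68 and 1.87). Matching gave 1.02, 0.92 and 1.73. Impad1 was detected in 52.1% and 23.3% of cells, with a difference of 1.98 (2.16 and 1.81) and of 2.25 in the matched cells. Pdia6 was detected in 54.2% and 23.3% of cells, with a difference of 1.94 (2.03 and 1.93) and of 1.69 in the matched cells. The counting was without strand, and the exons of Ccnd2, Sh3bgrl, Cetn3, Top2a, Cdk4 and Pdia6 overlap another gene. Reads of such pairs cannot be told apart, which holds for 38 of the 122 named genes.

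Eomes, Neurog2 and Sox2, markers of progenitors, were detected more often in cells with Pax6. So were most other measured markers of the same lists, but not Rnd2 and Prom1. Eomes, the T-box factor of intermediate progenitors (chromosome 9, 118478212 to 118486132, forward strand), had a median of 26.3 RPKM with Pax6 (0 to 244) and of 5.01 without (0 to 260). It was detected in 42 of 48 cells (87.5%, 74.7 to 95.3%) and in 36 of 60 (60.0%, 46.5 to 72.4%). The shares were 81.0% and 70.6% in plaque 1, and 92.6% and 46.2% in plaque 2, so the gap was wider in plaque 2. The difference was 1.24 (0.65 and 1.81), 1.04 in the matched cells, where it was not called, and 1.16 without the cells with many G2 and M phase genes. Neurog2, the proneural factor whose sequences drive the Cre, was detected in 43.8% and 18.3% of cells, with a difference of 0.94 (0.72 and 1.06). Of 18 members of the intermediate progenitor list in the table, 12 were higher in both plaques by sign and 1 lower, beside 27.4% and 12.1% of genes with any value above 0. Of 13 measured members, 4 were called higher, beside 3.68% of all measured genes. These were Eomes, Btg2, an antiproliferative gene (1.21, with 1.64 and 0.78), Hes6, an inhibitor of Hes1 (1.21, with 1.11 and 1.44), and Mfng, a Fringe glycosyltransferase that acts on Notch (1.13, with 1.44 and 0.64). Rnd2, a small GTPase of migrating neurons, was detected in 70.8% of cells with Pax6 and 75.0% without. In the matched cells 0 of 11 members were called, 4 were higher and 3 lower in both plaques by sign, and the list median was -0.18 in plaque 1 and 0.63 in plaque 2. There Btg2 was at -0.17, Hes6 at 0.38 and Mfng at 0.54.

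Sox2, the stem cell factor of radial glia (chromosome 3, 34650405 to 34652461, forward strand), was detected in 17 of 48 cells with Pax6 (35.4%, 22.2 to 50.5%). In the class without Pax6 it was detected in 4 of 60 cells (6.67%, 1.85 to 16.2%). The counts were 7 of 21 and 0 of 34 in plaque 1, and 10 of 27 and 4 of 26 in plaque 2. Its highest values were 60.4 and 40.1 RPKM, its median was 0 in both classes, and its difference was 0.93 (1.31 and 0.49). In the matched cells the difference was 0.38. Several other markers of radial glia were rare. Hes5, a Notch target, was detected in 4 and 0 cells, Hes1 in 1 and 0, and the intermediate filament gene Vim in 3 and 1. Hopx and Gfap were under 1 RPKM in every cell, and a count of 0 allows up to 7.40% of cells with Pax6 and 5.96% without. Fabp7, a fatty acid binding protein of radial glia, was detected in 57.1% and 23.5% of cells in plaque 1 but in 51.9% and 53.8% in plaque 2. Its difference was 0.97 (1.50 and 0.33) and 0.02 in the matched cells. Prom1 was detected in 8.33% of cells with Pax6 and 10.0% without. The glutamate transporter gene Slc1a3 was detected in 27.1% and 10.0% of cells. Dbi was detected in 43.8% and 21.7%, Ptprz1 in 39.6% and 25.0%, and Sox9 in 27.1% and 11.7%. Of 24 members of the radial glia list, 7 were measured, 10 were higher in both plaques by sign (41.7%, beside 27.4% of genes with any value above 0), 1 was lower and 0 were called.

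**Figure D4:**
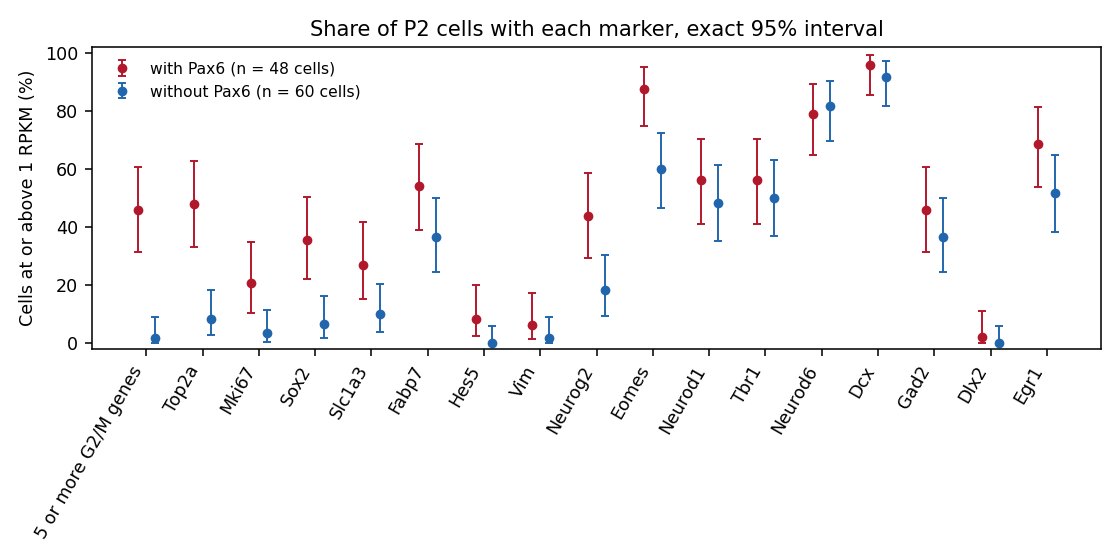
Percentage of P2 cells with each marker at 1 RPKM or more, for 48 cells with Pax6 and 60 without, where bars are exact 95% binomial intervals (counting error only). The intervals with and without Pax6 are 22.2 to 50.5% and 1.85 to 16.2% for Sox2. They are 74.7 to 95.3% and 46.5 to 72.4% for Eomes, and 65.0 to 89.5% and 69.6 to 90.5% for Neurod6. The cells are not replicates, so overlap or its absence is no test between the classes.

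Transcripts of glutamatergic neurons were detected in most cells of both classes, with overlapping intervals, which does not show that the classes are alike. Neurod6, a factor of postmitotic cortical neurons (chromosome 6, 55677822 to 55681263, reverse strand), had a median of 66.2 RPKM with Pax6 and of 123 without. It was detected in 38 of 48 cells (79.2%, 65.0 to 89.5%) and in 49 of 60 (81.7%, 69.6 to 90.5%), with a difference of -0.34 (-0.57 and -0.20). Without the cells with many G2 and M phase genes it was -0.91, and -0.06 in the matched cells. Tbr1 was detected in 56.3% and 50.0% of cells and Dcx, a microtubule protein of young neurons, in 95.8% and 91.7%. Neurod1 had opposite signs in the plaques (-0.48 and 1.69). Neurod2 was detected in 35.4% and 45.0% of cells, with a difference of -0.58 (-0.92 and -0.34). The glutamatergic list had 6 of 20 members higher in both plaques by sign, 5 lower and 0 called, with a median of -0.02. Of all genes with any value above 0, 27.4% were higher and 12.1% lower. Of the 15 measured members of the list, 5 were higher by sign (33.3%) and 5 lower, beside 45.5% and 13.4% of all measured genes.

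Most cells with Pax6 carried transcripts of neurons beside those of progenitors. Of the 48 cells, 22 held Eomes and Neurod6 without Sox2 (45.8%), 11 held all 3 genes (22.9%, 12.0 to 37.3%) and 5 held Sox2 and Eomes without Neurod6. No cell had Sox2 alone, which allows up to 7.40%. Of the 60 cells without Pax6, 28 held Eomes and Neurod6 (46.7%), 17 held Neurod6 alone (28.3%) and 3 held all 3 genes. Among the 11 cells with Pax6 and all 3 markers, 8 had at least 5 G2 and M phase genes, as did 7 of the 22 with Eomes and Neurod6 only. Doublets were not called. The labels state that captures were checked by eye, and whether pairs of cells were among these cells was not tested. Cells with many G2 and M phase genes had a median of 2424.5 detected genes within the class with Pax6, beside 2124 for the rest of the class.

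Within the class with Pax6, the 22 cells with many G2 and M phase genes and the other 26 differed in some of these markers. Median Pax6 was 15.6 RPKM in the former and 6.46 in the latter. Sox2 was detected in 54.5% and 19.2%, Neurog2 in 59.1% and 30.8%, and Neurod2 in 54.5% and 19.2%. Eomes (86.4% and 88.5%) and Neurod6 (77.3% and 80.8%) were detected at similar shares. In the 59 cells without Pax6 and with few G2 and M phase genes, Sox2 was detected in 6.78%, Neurog2 in 18.6%, Neurod2 in 45.8% and Eomes in 59.3%.

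The rule called 6 genes lower with Pax6 in all cells, against 120 in the matched cells. Atp2b1, a calcium pump of the plasma membrane, had a median of 0 RPKM (0 to 77.7) with Pax6 and of 5.10 (0 to 214) without. Detection was in 15 of 48 cells and in 36 of 60, with a difference of -1.14 (-0.81 and -1.66) that was -1.61 in the matched cells. Nrep, a gene of growing axons, had medians of 139 and 245 RPKM and a difference of -1.10 (-1.56 and -0.57). Ypel5 was at -1.12 (-1.25 and -0.90) and Zfp68 at -1.05 (-1.50 and -0.72). The other 2 called genes carry predicted or clone names. Stmn2, a growth cone protein, was detected in 27.1% and 53.3% of cells with a difference of -1.13 (-1.75 and -0.47), just outside the rule in plaque 2. Elavl3, a neuronal RNA-binding protein, went the other way, with 1.49 (1.72 and 1.28) and 1.67 in the matched cells. The pan-neuronal list held it as the only called member of 22, with 9 members higher in both plaques by sign and 4 lower. Of all genes with any value above 0, 27.4% were higher and 12.1% lower. Of the 17 measured members of the list, 8 were higher by sign (47.1%) and 3 lower, beside 45.5% and 13.4% of all measured genes. The 1 called member was 5.88% of them, beside 3.68% of all measured genes.

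Genes known to act with Pax6 or below it were summarised from a list of 26. Of these, 13 were higher in both plaques by sign (50.0%, beside 27.4%), 3 lower, and Eomes alone was called, with a list median of 0.19. Among regional factors of the pallium, Nr2f1 had a difference of 0.88 (0.38 and 1.16) and Lhx2 of 0.54 (0.21 and 0.66), and neither was called. The other 8 Pax genes were under 1 RPKM in every cell, 7 of them listed at 0. Of 28 Notch pathway genes, 12 were higher in both plaques by sign (42.9%, beside 27.4%) and 2 lower, with Mfng called. Rbpj, the transcription factor of the pathway, had a difference of 0.66 (0.52 and 0.75), and the ligand gene Jag1 of 0.78 (0.81 and 0.73).

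Egr1 and Fos, immediate early transcription factor genes that are switched on quickly by stimuli, were also higher with Pax6. Egr1 had a median of 36.8 RPKM (0 to 456) with Pax6 and of 1.17 (0 to 668) without, and reached 1 RPKM in 68.8% and 51.7% of cells. The difference was 2.03 (1.35 and 2.65) and 1.49 in the matched cells. Fos was detected in 25 of 48 cells and in 10 of 60, with a difference of 1.77 (0.80 and 2.49) and 1.65 in the matched cells. Jun had 0.94 (1.03 and 0.85). Over all 21 list members, 7 were higher in both plaques by sign (33.3%, beside 27.4% of genes with any value above 0) and 2 lower. The 8 measured members had a median difference of 0.94, beside 0.20 for all measured genes. In the matched cells these medians were 0.26 and 0.01. Of the 8 measured members Egr1, Fos and Btg2 were called (37.5%, beside 3.68% of all measured genes). In the matched cells 2 of 8 were called, beside 1.32% of all measured genes.

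Defining markers of other cell types were listed at or near 0 in most cells of both classes. A listed 0 need not mean absence, since the 5 mitochondrial genes named as listed at 0 are used by every cell. Gad2, a gene of GABA synthesis, was detected in 45.8% of cells with Pax6 and 36.7% without, with a difference of 0.43 (0.79 and 0.35). Its partner gene Gad1 and the GABA transporter gene Slc32a1 were listed at 0 in every cell. Dlx2 and Sp8, factors of GABAergic neuroblasts, were detected in 1 cell with Pax6 each, and Th in 2. Cells with both Gad2 and Neurod6 numbered 15 of 48 (31.3%) and 17 of 60 (28.3%). The summed level of the GABAergic list had a median of 55.8 RPKM with Pax6 (8.26 to 298) and of 53.7 without (0 to 330), most of it from Gad2 and from Meis2, which was detected in nearly every cell. No member of the oligodendrocyte, microglia, endothelial or ependymal lists was measured, and the median summed level of each was 0 in both classes. Members listed at 0 in every cell were 2 of 12, 8 of 11, 9 of 12 and 9 of 10. Of astrocyte genes, Sparcl1 was called higher (1.20, with 2.01 and 0.58), being detected in 14 and 4 cells, while Aqp4 was detected in 0 and 1 cells and Gfap in none. The summed level of the 17 astrocyte genes had a median of 63.4 RPKM (0 to 544) with Pax6 and of 13.7 (0 to 477) without. The most often detected of the 17 was Cst3, in 83.3% and 66.7% of cells, with a difference of 1.07 that was not called. Of the 17, 7 were listed at 0 in every cell. Sparcl1 was at 0.30 in the matched cells. The part of other cell types in the differences between the classes was not tested.

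**Figure D5:**
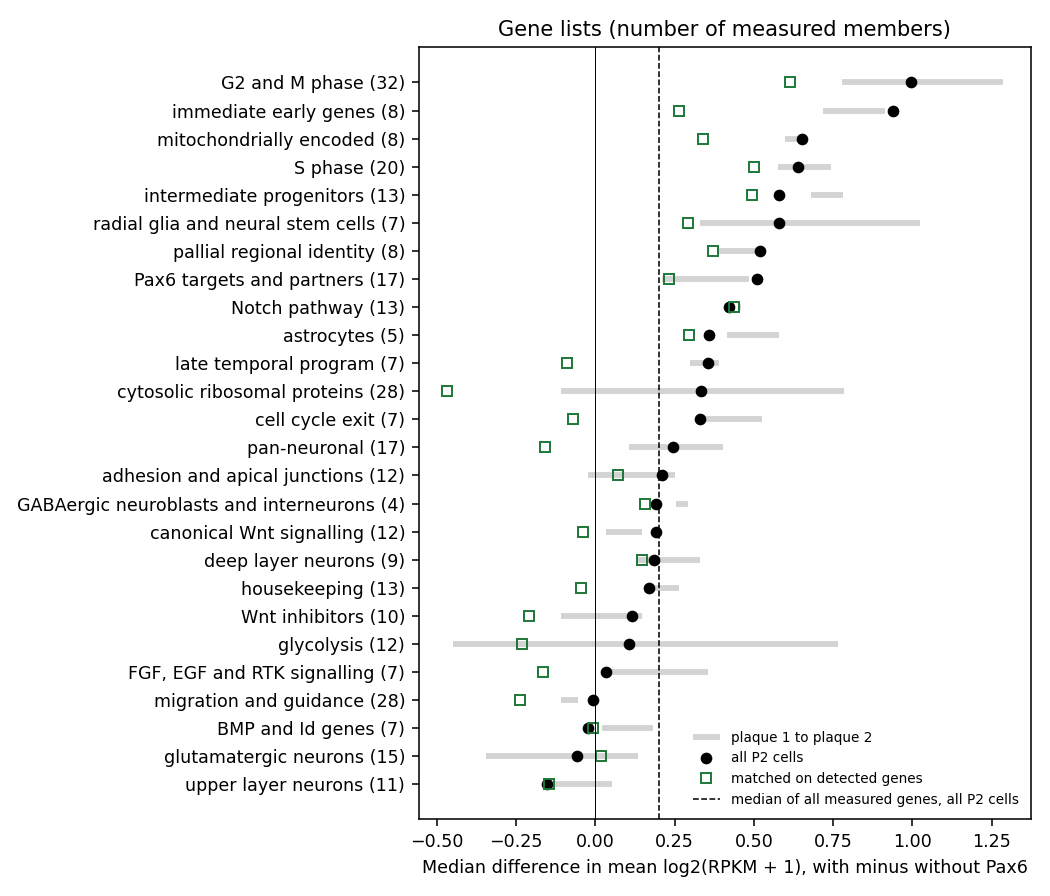
Median difference in mean log2(RPKM + 1), cells with Pax6 minus cells without, over the measured members of each gene list, for all P2 cells (points), from plaque 1 to plaque 2 (grey bars) and in the matched cells (squares), with the median of all measured genes (0.20) as a dashed line. The G2 and M phase list has the highest point and upper layer neurons the lowest, and members that passed the detection limit in 1 class only were bound to differ.

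Genes were also ranked by how closely their levels went with Pax6 over all P2 cells, which uses the same Pax6 values as the classes. Among 2427 genes detected in at least 25% of cells, the rank was by whichever of the 2 within-plaque Spearman values was nearer to 0. H2afv came first (0.61 in plaque 1 and 0.46 in plaque 2), followed by Top2a (0.46 and 0.59), Ddx46, an RNA helicase (0.41 and 0.43), and Ccnd2 (0.41 and 0.57). Klf3, Hmgb2, Ezh2, Magi1, Pdia6 and Tab2 came next. At the other end, Igsf3 (-0.31 and -0.30) and Atp2b1 (-0.21 and -0.40) had the lowest values. These describe 55 and 53 cells that share depth with Pax6. Over the cells of both plaques, Pax6 and detected genes had a rho of 0.46.

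The same split was made at E15, where Pax6 reached 1 RPKM in 27 of 121 cells (22.3%, 15.2 to 30.8%), at a median of 4.53 RPKM. The ages differ in dissected region and each counts as 1 sample, so values are given side by side only. E15 cells with Pax6 also had more detected genes, with a median of 3173 beside 2799.5 without. The E15 values were not matched on detected genes, and genes that passed the detection limit in 1 class only were bound to differ. At E15, 8 of 27 cells with Pax6 (29.6%) and 15 of 94 without (16.0%) had at least 5 G2 and M phase genes, where P2 had 45.8% and 1.67%. In the 2 sets of E15 cell titles the shares were 40.0% and 12.0% in set A, and 23.5% and 20.5% in set B, so the gap was wider in set A. All 34 G2 and M phase genes were measured at E15 and higher in both sets by sign, beside 3335 of 8420 measured genes. Their median difference was 0.84 (1.19 in set A, 0.59 in set B), beside 0.16 for all measured genes. The rule called 220 genes higher (2.61%) and 13 lower (0.154%) of 8420. Ccnd2 and H2afv both had a difference of 1.46, and Eomes of 1.25, close to its 1.24 at P2. Egr1 was at -0.04, Fos at -0.27 and Elavl3 at -0.50, beside 2.03, 1.77 and 1.49 at P2, and Neurod6 was at 0.56, beside -0.34. The difference between the ages was not tested.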

How the data were processed

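RNA of single cells was captured on C1 chips, amplified with SMARTer and read as 75 bp single reads. Per the submitters' processing notes, the tools were bcl2fastq 2.15.0.4, cutadapt 1.9.1, STAR and featureCounts, with GRCm38.p4; the annotation and read total behind the values are not given in the sources used here. The authors deposited RPKM per gene and cell, 46983 gene names in each table. As a check of the unit, with exon lengths from GENCODE M21 (45745 names matched) a median of 79.2% of low values of P2 cells (up to 20 reads) lay within 0.02 of a whole read. No count model was used, since the values are RPKM and cells are not replicates.

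Levels are means of log2(RPKM + 1). Shares have exact (Clopper-Pearson) 95% intervals; the reads carry no molecular identifiers and do not count molecules, so intervals cover counting error only. Named genes were up to 15 in each direction with the largest called differences, seen at 1 RPKM or more in at least 25% of a class, without predicted models, Xist, Tsix and Y-linked genes. Up to 4 measured members of each of 32 lists with the largest difference, and genes fixed by name, were added. Members, lists and rules were chosen with earlier results of these data known. The steps were tested on simulated data. The scripts used numpy 2.4.6, scipy 1.17.1, pandas 2.3.3 and matplotlib 3.10.9 under Python 3.11.15. The values of 1 named gene are not reported here.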

Additional observations from a re-analysis of the deposited data

How the results depend on the processing

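No paired analysis was possible because the classes are cells of 1 sample and share no replicate numbers. Among cells with Sox2 only, 959 genes were called higher and 1207 lower, which rests on 17 cells with Pax6 and 4 without, none of the 4 in plaque 1, so that only plaque 2 entered the rule. There the medians were 1.07 for intermediate progenitors, 2.10 for G2 and M phase, -0.34 for pan-neuronal genes, -0.0164 for Pax6 targets, -0.19 for immediate early genes, -0.24 for mitochondrial genes and -0.0228 for housekeeping genes. Btg2 was at -2.07, Sparcl1 at -0.22 and Cdk5 at -0.20, and the gap in detected genes was 72.5. The count of 258 genes called higher became 965 with a pseudocount of 0.1, 873 from the log2 of mean RPKM, 803 on the TPM scale, 598 with a Pax6 limit of 20 RPKM, 397 without cells with Gad2, 86 in matched cells and 768 without plaque 2. The count of 6 lower became 53, 351 and 60 under the first 3 of these, and 10 with median ratio scaling (145 genes). It was 15 with any Pax6 against 0, 17 and 59 with limits of 5 and 20 RPKM, and 120 in matched cells. It was 17 without cells with few genes, 12 without those above 20% mitochondrial RPKM, 27 without cells with at least 5 G2 and M phase genes, 26 among cells with Neurod6, 38 without Gad2, 109 without plaque 1 and 55 without plaque 2. Without cells with at least 5 G2 and M phase genes and with the rest matched, chosen after seeing the data, it was 137.

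The median of the 7 measured radial glia genes (0.58) was 1.21 with a pseudocount of 0.1 and 1.11 on the TPM scale. That of the intermediate progenitor list (0.58) was 0.89, 1.01 and 0.84 with the pseudocount, the log2 of the mean and the TPM scale. It was 0.88 with any Pax6, 0.73 with a limit of 20 RPKM, 0.50 matched, 0.65 without few-gene cells, 0.72 without high mitochondrial RPKM, 0.69 with Neurod6, 0.77 without Gad2, 0.94 without plaque 1, 0.68 without plaque 2 and 0.23 under the added setting. That of the G2 and M phase list (0.99) was 1.65, 2.63 and 1.55 under the same 3 scales, 0.62 matched, 0.0136 without the cells chosen by these genes and 0.0065 under the added setting. The Sox2 gap of 28.8 percentage points was 12.5 and 8.70 under the last 2. The Eomes gap of 27.5 was 46.4 without plaque 1 and 10.4 without plaque 2. The gap of 313.5 detected genes was 558 with a limit of 20 RPKM.

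Signs also turned under other settings as follows for lists with a median of at least 0.1 and 1 sign in both plaques, and the cause was not tested. In matched cells, medians were -0.16 for pan-neuronal genes, -0.0697 for cell cycle exit, -0.0886 for the late temporal list, -0.037 for Wnt signalling and -0.046 for housekeeping genes, and Btg2 was at -0.17. Lists without 1 clear sign also turned there, to -0.47 for ribosomal protein genes, -0.21 for Wnt inhibitors, -0.23 for glycolysis, -0.16 for FGF, EGF and receptor tyrosine kinase signalling and 0.02 for glutamatergic neurons. With the log2 of the mean, pan-neuronal genes were at -0.0334 and deep layer genes at -0.0204. Without cells with many G2 and M phase genes, cell cycle exit was at -0.0216, Rrm1 at -0.0271 and Cks2 at -0.0871. Under the added setting these were -0.15, -0.62 and -0.0671, with Hes6 at -0.65 and Spry2 at -1.12. Of the differences of named genes over all settings, 1562 kept sign and size, 624 moved and 10 turned. The median of all measured genes was 0.41, 0.18, 0.26 and 0.17 with the pseudocount, the log2 of the mean, the TPM scale and the median ratio. With 48 and 60 cells, a gene seen in few cells of either class cannot be told from a dropout.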

Other observations

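Markers of upper layer neurons, the neurons made late in cortical neurogenesis, did not move 1 way. Of 13 list members, 3 were higher in both plaques by sign, 4 lower and 0 called, beside 27.4% higher and 12.1% lower of all genes with a value above 0, with a median of -0.12 beside 0.01 for those genes. Cux2, a homeobox factor of upper layers and of SVZ progenitors, had medians of 5.15 RPKM with Pax6 and 11.4 without, and a difference of -0.86 (-1.16 and -0.68). Rorb was at -0.59 (-0.24 and -1.06). Among cells with fewer than 5 G2 and M phase genes, Cux2 was at -1.11, Neurod2 at -1.09 and Myt1l, a neuronal zinc finger factor, at -1.31, and all 3 were called lower. Myt1l was detected in 42.3% of these cells with Pax6 and 64.4% without. Nfia, a late temporal factor, was detected in every cell, from 28.3 to 379 RPKM with Pax6 and from 3.17 to 352 without, with a difference of 0.61 (0.52 and 0.77) and 0.53 in the matched cells.

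Among other groups, 12 of 38 migration and guidance genes were lower in both plaques by sign and 6 were higher. Of all genes with any value above 0, 12.1% were lower and 27.4% higher. Cdk5, a kinase of migrating neurons, was called higher at 1.22 (1.14 and 1.22). Epha3 was at -0.53 (-0.39 and -0.95) and Nrp1, a semaphorin receptor, at -0.52 (-0.40 and -0.84). Spry2, an inhibitor of receptor tyrosine kinase signalling, had medians of 67.9 and 31.0 RPKM and a difference of 1.14 (0.76 and 1.30), which was 0.06 without the cells with many G2 and M phase genes. Pkm, which encodes pyruvate kinase, had medians of 54.2 and 5.18 RPKM and a difference of 1.58 (1.27 and 2.17), while Aldoa, another glycolytic enzyme, was at -0.77 (-0.72 and -0.75). Ribosomal protein genes had a median of 0.33 that was 0.79 in plaque 1, -0.11 in plaque 2 and -0.47 in the matched cells. Id2, an inhibitor of basic helix-loop-helix factors, was at 0.66 (0.64 and 0.61) and at 1.33 in the matched cells.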
